A study of Rattus norvegicus with 232 samples.

Results

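Necab1, Necab2 and Necab3 encode the N-terminal EF-hand calcium-binding proteins, and their RNA was described here across inbred rat strains. They were found by symbol among 20859 genes of a RefSeq table of brain RNA, in which all 3 of the 3 had a row. A second search took the features named after them in an assembled annotation of the rn6 genome, which held 12 such features, 10 of them with a row among the 99376 features of the matching table. The family was selected on the measured difference between the strains SS/JrHsd and SR/JrHsd in 1 of those features, which bears the name Necab3. That contrast is therefore given as values and without a test.

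Total RNA depleted of ribosomal RNA was sequenced from the brains of untreated rats of the Hybrid Rat Diversity Panel. The labels list 232 samples of 74 strains, all of them male where a sex is given. The methods give the rats of 45 of these strains as young adults and describe brains cut sagittally, with a single side sequenced. The panel joins classic inbred strains with 2 families of recombinant inbred strains, HXB/BXH, whose parents are BN-Lx/Cub and SHR/OlaIpcv, and FXLE/LEXF, whose parents are F344/Stm and LE/Stm. A recombinant inbred strain is a fixed mosaic of its progenitors, so animals of 1 strain are near-identical in genotype but are only 1 draw of that mosaic. SS/JrHsd and SR/JrHsd are the salt-sensitive and salt-resistant Dahl lines.

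NECAB proteins carry an EF-hand, the helix-loop-helix motif that binds a calcium ion, near the N terminus, and a second domain of the kind found in antibiotic monooxygenases at the other end. They are mainly neuronal. NECAB1 marks sets of cortical and spinal neurons, NECAB2 is known from the striatum and hippocampal area CA2 and binds the adenosine receptor ADORA2A and the metabotropic glutamate receptor mGluR5, and NECAB3 binds APBA2, an adaptor of the amyloid precursor protein.

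The RefSeq table, of the processing version called v7.1, held 214 libraries of 197 animals, of which 54 strains had 3 animals, 15 had 2 and 5 had 1. There were 88 animals of 30 HXB/BXH strains, 43 animals of 19 FXLE/LEXF strains and 66 animals of 25 classic strains. The deposited values were normalized by the authors and were read as log2, a scale that the sources state for v5 and that was taken from the values for v7.1, where 5 values of other genes lay over 30. Library medians ran from 8.18 to 8.42. The tables give no read counts, so the depth of each library is unknown, and the scale is not corrected for transcript length, so that levels were compared between strains and not between genes. Libraries that stood apart are given before the results. The mean log2 level of 3 Y-linked genes (Kdm5d, Uty, Eif2s3y) was 9.06 to 9.46 in the libraries labelled LEW/Crl 1 to 3 and HXB17/Ipcv 2, against 9.94 to 11.51 in the 193 other animals. A list of 5 liver genes stood at 17.74 in the library labelled LE/Stm 2, against 6.01 to 12.85 elsewhere. In the assembled v5 table the libraries labelled SHRSP/A3NCrl 1 and F344/NCrl 2 were nearest to strains of another origin (r of 0.271 and 0.299 with their own), and F344/NCrl 1 and 3 were nearest to the substrain F344/NHsd (r of 0.827 and 0.921, against 0.679 and 0.751 with their own). Results given without the libraries that stood apart left out LEW/Crl 1 to 3, F344/NCrl 2, SHRSP/A3NCrl 1 and LE/Stm 2. They also left out LE/Stm 3, which had r = 0.831 with its own strain. F344/NCrl 1 and 3 were kept, and HXB17/Ipcv 2 was left out only in a version of the strain effects.

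The promoters of Necab2 and Necab3 are shown because these genes moved together among animals of a strain, along an axis shared with much of the transcriptome and not once it was removed, as described further on. RefSeq windows on GRCr8 were read for both, each the 250 bases before the annotated start, 5′ to 3′ on the gene's strand, with GC boxes (GGGCGG, or CCGCCC on the other strand) and CCAAT boxes (CCAAT, or ATTGG) in capitals. Necab2 lies on the plus strand (chr19:64409749-64409998) and Necab3 on the minus strand (chr3:163524156-163524405). No window for Necab1 was used here.
Necab2: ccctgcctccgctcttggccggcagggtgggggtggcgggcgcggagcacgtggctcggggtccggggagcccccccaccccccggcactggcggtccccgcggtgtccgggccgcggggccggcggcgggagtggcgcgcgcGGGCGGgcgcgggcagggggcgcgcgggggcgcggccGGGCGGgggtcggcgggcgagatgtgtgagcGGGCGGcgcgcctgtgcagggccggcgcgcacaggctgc
Necab3: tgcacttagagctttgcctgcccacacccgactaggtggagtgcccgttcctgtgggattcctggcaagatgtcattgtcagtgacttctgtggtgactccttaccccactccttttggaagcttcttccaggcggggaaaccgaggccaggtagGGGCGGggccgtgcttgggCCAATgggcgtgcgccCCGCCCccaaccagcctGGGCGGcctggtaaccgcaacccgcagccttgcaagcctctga
Both windows held 3 GC boxes, a motif found in 30.5% of 33469 rat promoter windows of the same length. A CCAAT box, found in 34.0% of windows, was present once in Necab3 and was not seen in the Necab2 window. G or C made up 85.6% of the Necab2 window and 62.8% of that of Necab3. A match is only a description of these letters.

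Each gene was expressed in every animal, and its strain means spanned a narrow range in this table. Necab1 had a mean level of 10.13, with strain means from 9.79 in SHR/OlaIpcv to 10.40 in MWF/Hsd, which is 1.53-fold if the scale is log2. Necab2 had a mean of 10.61 and ran from 10.28 in BN-Lx/Cub to 10.91 in LEXF2B/Stm, a strain with 1 animal, which is 1.54-fold. Necab3 had a mean of 10.10 and ran from 9.79 in LH/MavRrrc to 10.39 in LEXF5/Stm, which is 1.52-fold. Among RefSeq transcripts the range was wider. Strain means ran from 9.68 to 10.46 for NM_022302.1 of Necab1 and from 10.08 to 11.00 for NM_133415.2 of Necab2. For NM_001098724.1 of Necab3 they ran from 9.57 to 10.38. The fold therefore depends on the table that is read. In all 3 genes the spread between animals of a strain was larger than the spread of the strain means. The pooled SD within strains was 0.162 for Necab1, 0.184 for Necab2 and 0.145 for Necab3, against 0.122, 0.136 and 0.125 between strain means.

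The strains formed a continuous order. Each gene gave 73 pairs of neighbouring strains. In 63 pairs for Necab1, 65 for Necab2 and 63 for Necab3 both strains had 2 or more animals, and the animals overlapped in every one of these. Of the pairs that held a strain with 1 animal, 1 of 8 for Necab2 and 2 of 10 for Necab3 did not overlap, and 0 of 10 for Necab1. The ends of the order were nevertheless apart in some cases. Necab3 in the 3 animals of LH/MavRrrc was 9.80, 9.79 and 9.78, and in 69 of the other strains every animal was above all of these. LEXF5/Stm, at the other end, had 10.35 and 10.43. Next to LH/MavRrrc the lowest Necab3 strains with more than 1 animal were BXH6/Cub at 9.86 ± 0.201 (SD, n = 3) and COP/CrCrl at 9.91 ± 0.0304 (SD, n = 2), and below LEXF5/Stm stood HXB1/Ipcv at 10.36 ± 0.0654 (SD, n = 3).

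Necab1 was 10.45, 10.31 and 10.43 in the animals of MWF/Hsd. It was 9.84 and 9.73 in those of SHR/OlaIpcv, whose animals had been sequenced 12 and 6 times. In 66 of the other strains every animal was above both SHR/OlaIpcv animals, and in 50 every animal was below the lowest of MWF/Hsd. HXB1/Ipcv, the second lowest strain for Necab1 at 9.89 ± 0.107 (SD, n = 3), was thus the second highest for Necab3. Necab2 gave no such low strain. BN-Lx/Cub, the lowest, had 9.95, 10.65 and 10.25, and only 11 other strains lay wholly above it.

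**Figure D1:**
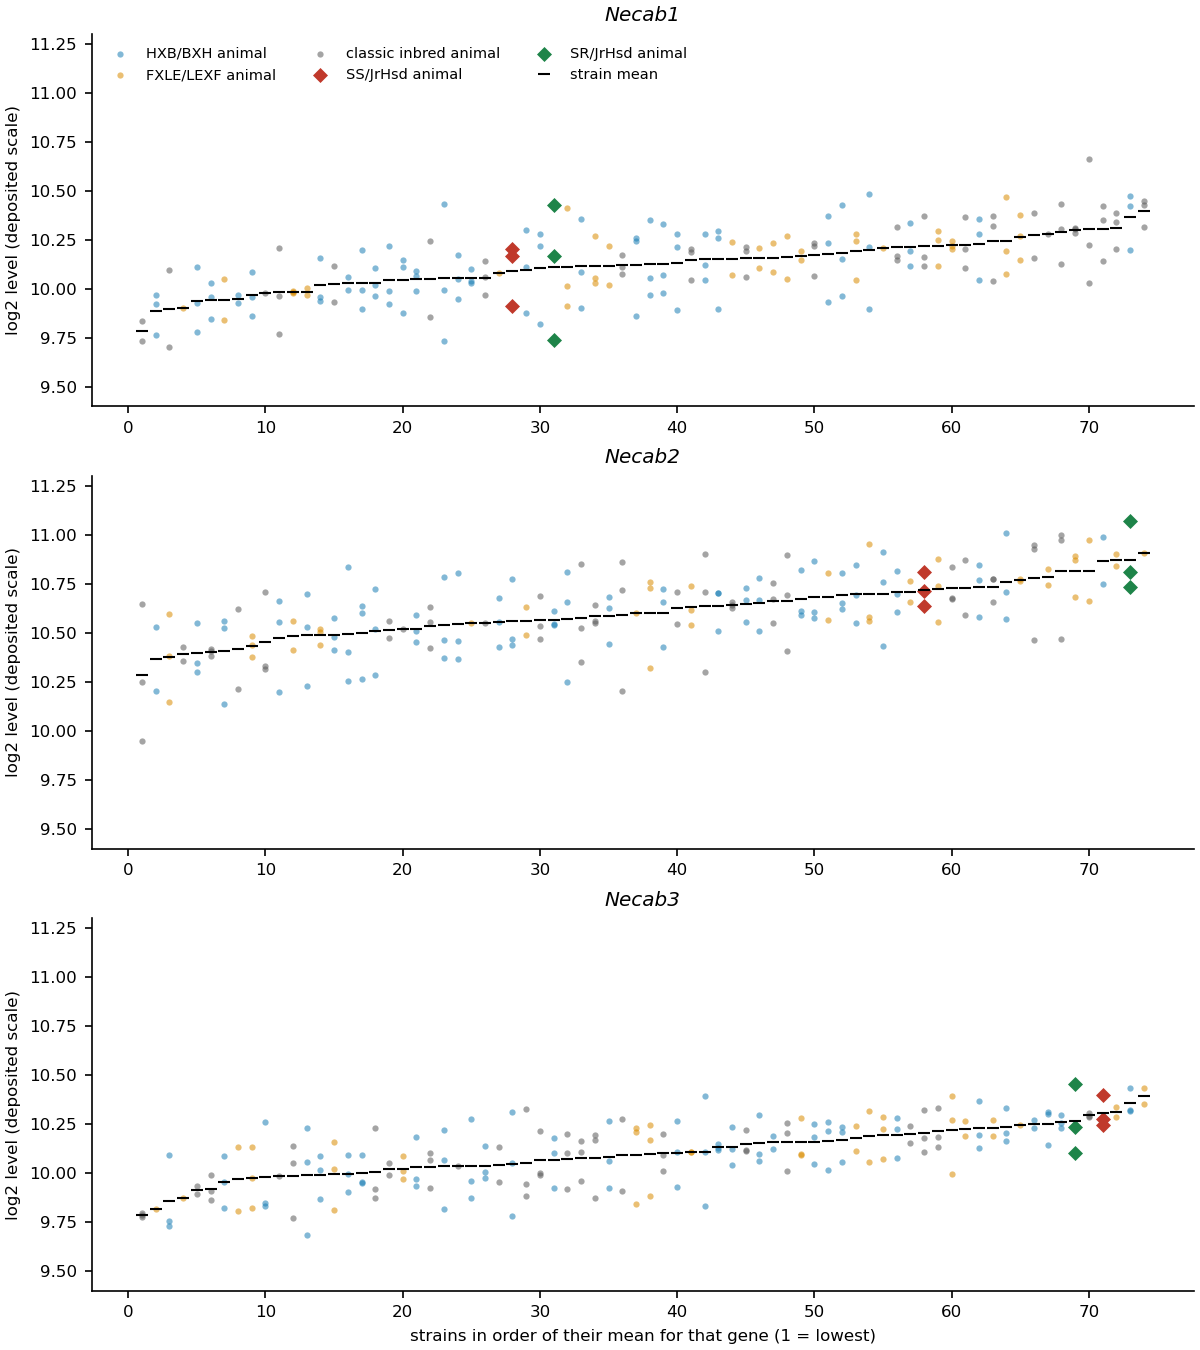
Level of Necab1, Necab2 and Necab3 (log2, v7.1 RefSeq table) in every animal, 1 panel per gene, with the 74 strains on the x axis in order of their mean and points coloured by panel of strains; diamonds mark SS/JrHsd and SR/JrHsd. Neighbouring strains overlap along the order wherever both have 2 or more animals, and Necab3 of LH/MavRrrc at the left end lies below nearly all other strains.

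Repeat libraries give the spread of 1 animal measured again, in few animals and across batches. Over 3 animals with 20 libraries in all, 18 of them from 2 SHR/OlaIpcv animals, the pooled SD between libraries of the same animal was 0.149 for Necab1, 0.247 for Necab2 and 0.142 for Necab3. For Necab2 this was larger than the SD between animals of a strain. Its 12 libraries of SHR/OlaIpcv 1 ran from 9.86 to 10.88, a wider range than that of the 74 strain means.

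Whether strain explained a share of the variation was asked with R2, the share of the total sum of squares that lies between strains, over 72 strains with 191 animals, SS/JrHsd and SR/JrHsd being left out. Of all genes, 36.4% were called at an adjusted p under 0.05 by the moderated F-test of limma, which was fitted to the whole table, and 1 of the 3 members was. Necab3 passed with an R2 of 0.507 (limma adjusted p 0.0150). Necab1 had an R2 of 0.466 (adjusted p 0.0721) and Necab2 an R2 of 0.439 (adjusted p 0.146). The median gene had 0.453, so the family lay near the middle of the table. With few animals per strain a sizeable R2 arises even without a strain effect, while the moderated F then lies near 1. F was 1.47 for Necab1, 1.33 for Necab2 and 1.73 for Necab3. The Necab3 call was lost when the animals of any 1 replicate number were left out (adjusted p 0.1003 to 0.307, where 14.6% to 30.01% of all genes were called). Necab1 gained a call in 1 of these 3 cases (adjusted p 0.0462 to 0.548 over the cases). With a covariate the size is a partial R2, the share of the sum of squares that the covariate leaves, and is not comparable with R2 without one. With sequencing batch as a covariate, where 60.6% of all genes were called, all 3 members passed. The partial R2 was 0.513 for Necab1 (adjusted p 0.0233), 0.581 for Necab2 (adjusted p 0.000879) and 0.529 for Necab3 (adjusted p 0.0131). Without the libraries that stood apart Necab3 kept its call, with an R2 of 0.512 (adjusted p 0.0130), and Necab1 and Necab2 stayed outside it.

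Within the families of strains, Necab3 passed in none and Necab1 in 1. In HXB/BXH, where 19.1% of genes were called, no member passed. R2 there was 0.317 for Necab1, 0.354 for Necab2 and 0.440 for Necab3, beside a median of 0.409 over all genes (limma adjusted p 0.634, 0.469 and 0.179). F was 0.953, 1.13 and 1.58 in the same order, so that Necab1 differed between strains no more than its spread within strains gives. In FXLE/LEXF, where 4.61% were called, R2 was 0.482, 0.635 and 0.567 in the same order, beside a median of 0.516, and none passed (limma adjusted p 0.492, 0.151 and 0.273). Among the classic strains 18.0% of genes were called. There Necab1 passed, with an R2 of 0.584 (adjusted p 0.0432), while Necab2 had 0.403 (adjusted p 0.473) and Necab3 had 0.540 (adjusted p 0.122). The Necab1 call among classic strains was lost without number 1 (adjusted p 0.281) or number 2 (adjusted p 0.591). It was also lost with the replicate block, the title batch, the first library of each animal, centred libraries or only genes above the median level. In v6 and v5 it did not pass either, as given further on. Whether the panels differ in R2 was not tested.

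The progenitors of the recombinant families were compared next, by limma contrasts that share 1 estimate of spread over all strains. Between BN-Lx/Cub and SHR/OlaIpcv 4.90% of genes were called. Necab1 was 10.66, 10.22 and 10.03 in the BN-Lx/Cub animals, all above the 9.84 and 9.73 of SHR/OlaIpcv. The difference was 0.52 with an SE of 0.147 (95% interval 0.23 to 0.81, limma adjusted p 0.0210). The direction held when any 1 animal was left out, while the call was lost in 3 of 5 cases. Without BN-Lx/Cub 1 the difference was 0.34 (adjusted p 0.446), without SHR/OlaIpcv 1 it was 0.57 (adjusted p 0.111) and without SHR/OlaIpcv 4 it was 0.47 (adjusted p 0.298). The call was also lost with the replicate block (0.47, adjusted p 0.139), in a fit of both strains alone (0.52, adjusted p 0.388), in v6 (0.29, adjusted p 0.511) and in v5 (0.13, adjusted p 0.730). Batches 3, 4 and 6 held libraries of both strains, those of SHR/OlaIpcv all from animal 1. There Necab1 was 10.66 and 10.22 in BN-Lx/Cub against 9.87 in batch 3, 10.06 against 10.11 in batch 4 and 9.99 against 9.84 in batch 6, so that it was higher in 3 of 4 libraries. A limma fit over libraries, with batch as a covariate and the animal as a random block, gave 0.33 (95% interval 0.09 to 0.57, adjusted p 0.0484, where 18.1% of genes were called), with 4 libraries from 3 animals against 18 from 2. Over animals Necab2 differed by -0.23 (95% interval -0.56 to 0.10, adjusted p 0.466) and Necab3 by 0.03 (95% interval -0.23 to 0.29, adjusted p 0.929), neither past the threshold. In the fit over libraries Necab2 passed, at -0.39 (95% interval -0.64 to -0.14, adjusted p 0.0234), and was lower in BN-Lx/Cub in 4 of 4 libraries within batches. Over animals its direction turned in the v7.1 assembled table (0.13) and in v5 (0.0057), and leaving out animals gave -0.41 to -0.02.

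The HXB/BXH strains show how the Necab1 difference compares with their spread. The 30 strain means ran from 9.89 to 10.36, inside the 9.79 to 10.30 of the progenitors but for the top. Between F344/Stm with 3 animals and LE/Stm with 1, where 0.805% of genes were called, no member passed. The differences were 0.23 for Necab1 (95% interval -0.14 to 0.60), 0.06 for Necab2 (95% interval -0.36 to 0.47) and -0.00 for Necab3 (95% interval -0.33 to 0.33), and the lone LE/Stm animal is the one with the high liver list.

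Whether the members rise and fall together was asked over the 72 strain means, with 100000 permutations of the strain labels, two-sided, and adjustment over 12 relations. Necab2 and Necab3 had r = 0.320 (permutation p 0.00605, adjusted 0.0726) and rho = 0.301 (adjusted permutation p 0.114), and r was 0.296 without the 2 strains farthest from the median of Necab2. This did not pass. It was 0.367 in HXB/BXH, 0.381 in FXLE/LEXF and 0.135 among classic strains, none of which passed. Necab1 had r = -0.093 with Necab2 (adjusted permutation p 0.752) and r = -0.146 with Necab3 (adjusted permutation p 0.440).

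Among the animals of a strain the relations were stronger. Taking each animal's deviation from its strain mean, over 191 animals, Necab2 and Necab3 had r = 0.536 (adjusted permutation p 3e-05, the smallest that the permutations can give after adjustment over 3 relations). Necab1 went the other way, with r = -0.291 against Necab2 (adjusted permutation p 0.00147) and r = -0.363 against Necab3 (adjusted permutation p 0.000555). After batch had been removed too these were 0.552, -0.260 and -0.371. These deviations are shared by much of the transcriptome. The first axis of the within-strain deviations of 10429 genes held 36.0% of their variance, and Necab2 had r = 0.850 with it, Necab3 r = 0.630 and Necab1 r = -0.582. A larger size of r was seen in 7.57% of those genes for Necab2, in 46.1% for Necab3 and in 52.0% for Necab1. Once this axis was removed, Necab2 and Necab3 had r = 0.002, Necab1 and Necab3 r = 0.006, and Necab1 and Necab2 r = 0.476. What the axis stands for was not tested.

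The genes whose strain means were most like each member were searched among 10033 named genes above the median level, over 72 strains. Nearest to Necab1 were Chn1, a GTPase-activating protein for Rac, with r = 0.780, Kctd4 with 0.773, the neuronal adhesion gene Nrcam with 0.766, and the GABA-A receptor subunits Gabra3 with 0.763 and Gabrb1 with 0.759. Nearest to Necab2 were the kinase Akt1 with r = 0.799, the reticulon Rtn2 with 0.798, the mannosidase Man2c1 with 0.790, the thyroid hormone receptor Thra with 0.786 and Ptprn, a protein of dense-core vesicles, with 0.778. Nearest to Necab3 were the G protein chaperone Ric8a with r = 0.684, Tspy26 with 0.629, Cnih3, an auxiliary protein of AMPA receptors, with 0.624, Klhdc3 with 0.621 and Pgap4 with 0.617. No gene was among the nearest 5 of more than 1 member. Likeness was about as strong among animals of a strain. There the nearest 5 had r of 0.723 to 0.772 with Necab1, 0.799 to 0.885 with Necab2 and 0.666 to 0.728 with Necab3. None of the 5 nearest to Necab2 passed the strain F-test (limma adjusted p 0.104 to 0.327).

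Known partners were read together with related genes, in a list of 9 that were all measured. Of these 3 passed the strain F-test, against the 36.4% of all genes, and their median R2 was 0.472 beside 0.453 over all genes. Adora2a, the adenosine receptor that NECAB2 binds, had an R2 of 0.506 (limma adjusted p 0.0121) and its strain means had r = 0.532 with Necab2. Grm5, the gene of mGluR5, had an R2 of 0.508 (adjusted p 0.0175), with r = 0.698 against Necab1 and -0.128 against Necab2. Apba2, the adaptor that NECAB3 binds, had an R2 of 0.474 (adjusted p 0.0659), with r = 0.545 against Necab2 and 0.429 against Necab3. Its relative Apba1 had an R2 of 0.535 (adjusted p 0.00808), with r = 0.473 and 0.143. Nek7, a kinase of mitosis, had r = -0.500 with Necab2 and -0.449 with Necab3. These correlations come from the same libraries and carry no test. Adora2a also belongs to the striatum list and Syt1 to the neuron list used further on.

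Other EF-hand proteins, most of them calcium sensors and buffers, were counted from a list of 32, of which 12 passed, against the 36.4% of all genes, with a median R2 of 0.463 beside 0.453. The highest R2 was that of S100a10, an annexin-binding S100 protein whose EF-hands no longer bind calcium, with 0.692, and of Kcnip3, a potassium channel-interacting protein, with 0.667. The lowest were recoverin (Rcvrn) with 0.380 and the calcineurin subunit Ppp3r1 with 0.393. All 3 Necab genes lay between these ends.

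Brain samples can differ in how much of each region or cell type they hold, and in bulk RNA fewer cells of a type and less RNA per cell cannot be told apart. Strain means of each member were therefore set beside 16 marker lists, giving 48 relations, of which 10 passed (100000 permutations, two-sided, adjusted over 48). The share of all genes with such relations is not given, so this count is not read as a trait of the members. Necab1 rose with the cortex projection neuron list (r = 0.451, rho = 0.419, adjusted permutation p 0.00128) and with the interneuron list (r = 0.451, rho = 0.399, adjusted permutation p 0.00128). The lists were read in whole-brain RNA, so the interneuron list is not limited to cortical cells. Necab1 also rose with microglia (r = 0.327, adjusted permutation p 0.0307). It fell with the olfactory bulb list (r = -0.347, adjusted permutation p 0.0244) and with blood (r = -0.322, adjusted permutation p 0.0307), and these last relations dropped to r = -0.208 and -0.227 without the 2 farthest strains. Necab2 rose with the neuron list (r = 0.528, rho = 0.461, adjusted permutation p 0.00048). It also rose with hippocampal CA2 (r = 0.404, adjusted permutation p 0.00624) and with striatum (r = 0.377, adjusted permutation p 0.00931), which are regions it is known from. With the habenula list it did not pass (r = 0.134, adjusted permutation p 0.439). The Necab2 relations that passed were not particular to strains. Among animals of a strain r was 0.655 with neurons, 0.554 with hippocampal CA2 and 0.395 with striatum. The neuron relation was only 0.150 among classic strains. Within strains Necab1 had r = 0.204 with cortex projection neurons and 0.181 with interneurons. With each library centred on its median, Necab1 with blood (r = -0.277, adjusted permutation p 0.0617) and Necab2 with hippocampal CA2 (r = 0.236, adjusted permutation p 0.115) no longer passed, while Necab3 with microglia did (r = -0.353, adjusted permutation p 0.0190). Without the libraries that stood apart 12 relations passed, with Necab2 and liver (r = -0.299, adjusted permutation p 0.0483) and Necab3 and oligodendrocytes (r = -0.326, adjusted permutation p 0.0290) added. Necab3 rose with neurons (r = 0.337, adjusted permutation p 0.0261) and fell with astrocytes (r = -0.311, adjusted permutation p 0.0385). The neuron markers, all 5 measured, had a mean level of 13.77 to 14.36 per animal, so that no animal lacked them. The part of region and cell makeup in the strain differences of the members was not tested.

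SS/JrHsd and SR/JrHsd were then compared gene by gene, as a description. In the RefSeq table Necab1 was 9.91, 10.16 and 10.20 in SS/JrHsd and 9.74, 10.43 and 10.17 in SR/JrHsd. Necab2 was 10.81, 10.64 and 10.71 against 11.07, 10.81 and 10.73. Necab3 was 10.40, 10.28 and 10.25 against 10.45, 10.10 and 10.24. The animals of both strains overlapped in all 3 genes. The SS minus SR difference was -0.02 for Necab1, -0.15 for Necab2 and 0.04 for Necab3, beside a median size of 0.0894 and a 95th percentile of 0.367 over all genes of the table.

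A feature of the v5 table that bears the name Necab3 gave another picture. This table was assembled from the reads themselves and held 135 animals of 45 strains. PRN6.5G0059293 was 5.35, 5.15 and 8.05 in SS/JrHsd and 11.03, 12.17 and 13.53 in SR/JrHsd. Its means of 6.18 ± 1.62 (SD, n = 3) and 12.24 ± 1.25 (SD, n = 3) differed by -6.06 on this scale, in a table with a median size of 0.320 and a 95th percentile of 1.22. Within batch the difference was -6.45 in batch 8 and -6.83 in batch 11, and leaving out any 1 animal gave -6.99 to -5.42. The SS/JrHsd values of 5.35 and 5.15 lay within 0.3 of the lowest of all animals, so no fold is given. Summed on the linear scale with PRN6.5G0059222 and PRN6.5G0059290, with which it shares bases, the levels were 10.10 ± 0.0811 (SD, n = 3) in SS/JrHsd and 12.38 ± 1.17 (SD, n = 3) in SR/JrHsd as log2, a smaller difference. The summed values are shrunken and some lie near the lowest level, so the sum is not a total of reads over the shared bases. The other Necab3 features did not follow PRN6.5G0059293. PRN6.5G0059290 was 7.47, 7.70 and 7.69 in SS/JrHsd and 6.11, 6.09 and 7.48 in SR/JrHsd, so that the animals overlapped at 7.47 and 7.48 and the mean difference was 1.06. PRN6.5G0059222 was higher in SS/JrHsd, with 9.69, 9.74 and 9.44 against 8.25, 8.29 and 8.81, a difference of 1.17. Of all features of the table, 6.38% had every SS/JrHsd animal above every SR/JrHsd animal and 5.66% every one below. Of the 9 measured Necab3 features, 4 had animals that did not overlap. The family was selected on this contrast, so this count cannot be set against those shares. PRN6.5G0059293 was lower in SS/JrHsd and 3 features were higher. These were PRN6.5G0059222, which shares bases with PRN6.5G0059293, PRN6.5G0059252 with a difference of 0.48 and PRN6.5G0059286 with 1.21, at a low mean level of 2.83.

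The feature that holds the known gene, PRN6.5G0059266, did not separate the strains, with 10.86 ± 0.134 (SD, n = 3) in SS/JrHsd and 10.69 ± 0.212 (SD, n = 3) in SR/JrHsd. Necab3 of the v5 Ensembl table differed by 0.07 and that of the v6 Ensembl table by 0.03, both with overlap. For Necab1 the v5 feature PRN6.5G0079638 differed by 0.05. Across gene tables, the large difference was thus seen in PRN6.5G0059293 and in no row that holds the known exons of Necab3.

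**Figure D2:**
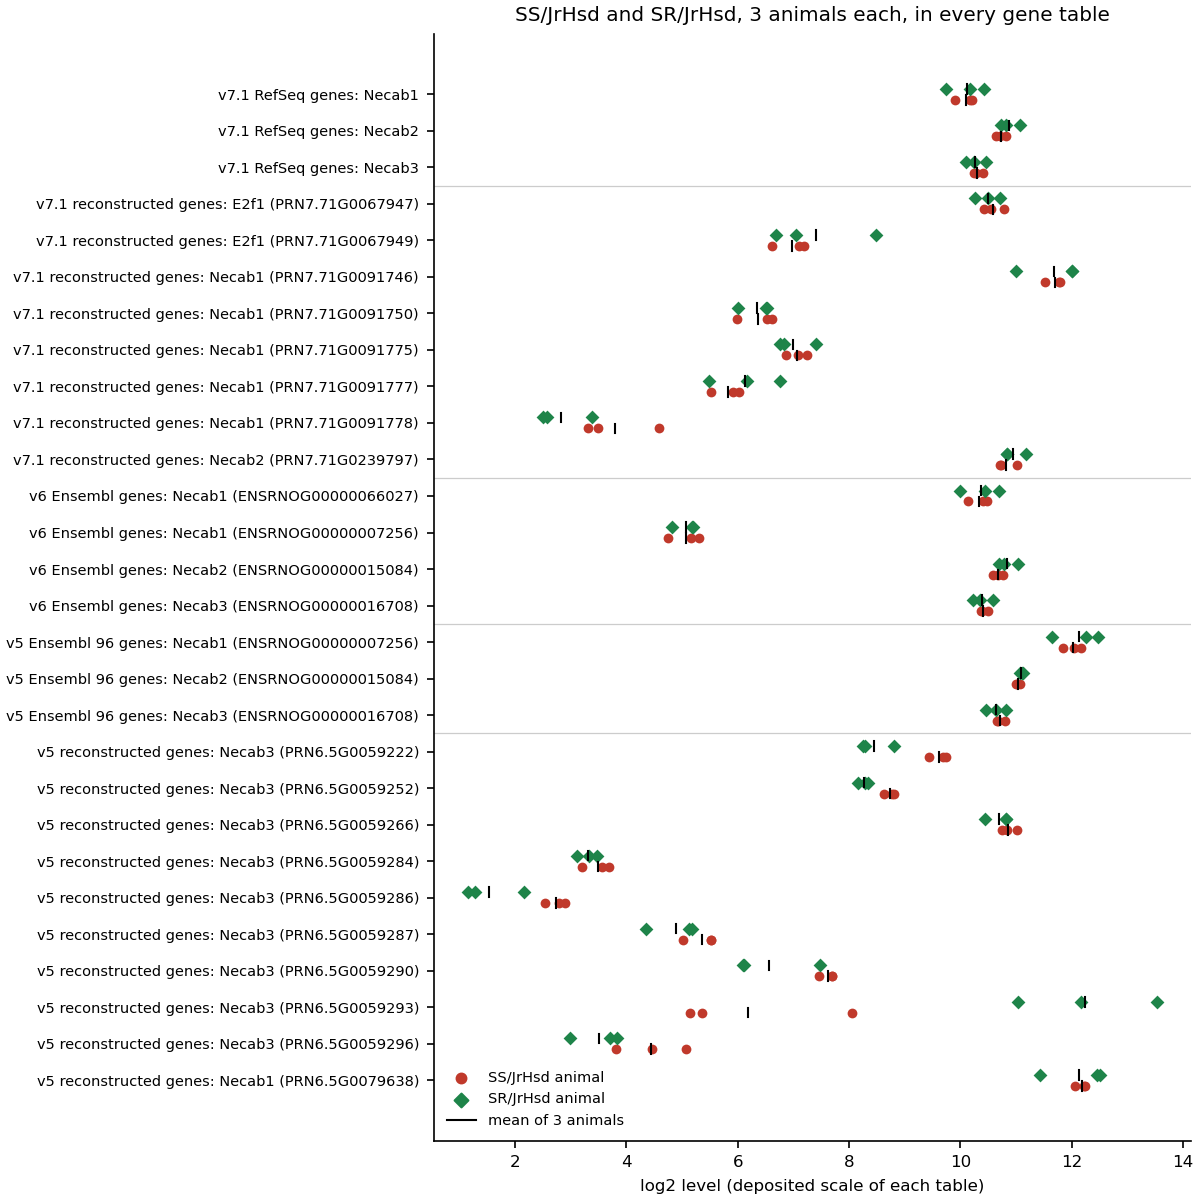
Level (log2) of each Necab gene or feature in the SS/JrHsd and SR/JrHsd animals, 1 point per animal, for every gene table and feature named after a member. Both strains overlap in the RefSeq and Ensembl rows, while PRN6.5G0059293 lies at 5.15 to 8.05 in SS/JrHsd and at 11.03 to 13.53 in SR/JrHsd.

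Where these features lie shows how they relate to the gene. Coordinates refer to rn6. The Necab3 reference transcript ENSRNOT00000022115 lies on the minus strand of chromosome 3 from 150047826 to 150062311, with 13 exons of 1772 bases. Of the 11 features named Necab3, only PRN6.5G0059266 held those exon bases, all 1772 of them. It also held all 2643 exon bases of a second reference transcript given the same gene identifier, ENSRNOT00000022428 (150062895 to 150073721). The strain means of that transcript followed E2f1 of the RefSeq table (r = 0.743) more closely than Necab3 (r = 0.456). The other 10 features had no base in an exon of either transcript.

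Instead, 7 of those 10 met in a short stretch further along chromosome 3, at 150154373 to 150155789, which is 1417 bases covered by up to 5 features. PRN6.5G0059293 (150151765 to 150181761, 3 exons of 479 bases) had 94.4% of its exon bases in the stretch, PRN6.5G0059290 (150138156 to 150169501, 482 bases) had 92.3%, PRN6.5G0059296 had 100% and PRN6.5G0059222 had 76.7%. The 3 exons of PRN6.5G0059293 had 16, 452 and 11 bases, and those of PRN6.5G0059290 had 27, 445 and 10, so their outer exons are very short. PRN6.5G0059293 began 89454 bases past the 5′ end of the Necab3 reference transcript, that is, upstream of the gene in its own direction. On the plus strand the stretch lies in the span of the gene model AABR07054367.1, with none of its exon bases. Features that share bases can divide 1 set of reads between them in the counting, so that the level of any single one is uncertain. In the RefSeq annotation on GRCr8, another build, the genes that follow Necab3 there are C3h20orf144, Actl10, E2f1, Pxmp4, Snrpel3 and Zfp341. Inside Zfp341 it places the tRNA gene Trnaa-agc3 and the protein-coding gene Eef1a1l2, neither of them measured. Whether the stretch lies at either was not tested.

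**Figure D3:**
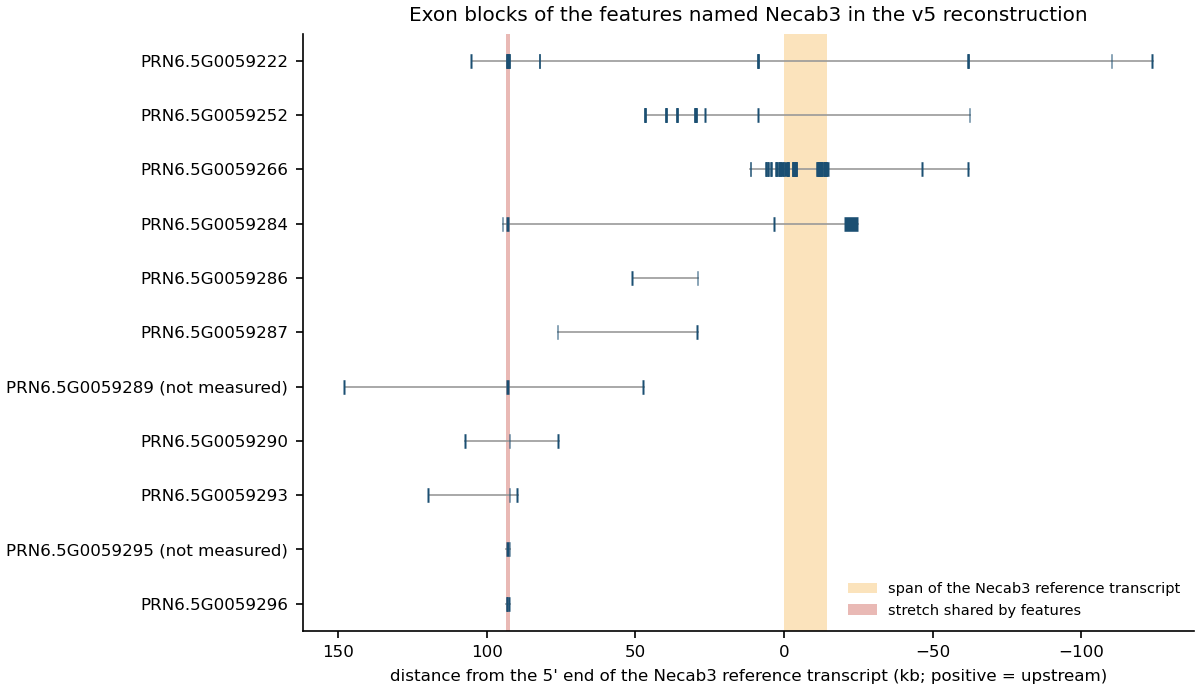
Exon blocks of the 11 features named Necab3 in the v5 annotation, by distance in kb from the 5′ end of the Necab3 reference transcript, 1 line per feature, with the shared stretch shaded. Only PRN6.5G0059266 holds the exons of the known gene, and PRN6.5G0059290, PRN6.5G0059293 and PRN6.5G0059296 lie wholly upstream of it.

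Across the other 43 strains, 5 of these features had a larger R2 than the gene itself. Of all features in the v5 table, 35.1% passed the strain F-test, and 6 of the 10 named features did, 5 of them named Necab3. R2 was 0.856 for PRN6.5G0059252 (limma adjusted p 3.21e-17), 0.821 for PRN6.5G0059290 (adjusted p 3.09e-17), 0.795 for PRN6.5G0059222 (adjusted p 8.63e-15), 0.704 for PRN6.5G0059293 (adjusted p 2.23e-09) and 0.660 for PRN6.5G0059287 (adjusted p 4.41e-07), beside a median of 0.418. PRN6.5G0059266, with the known exons, had 0.437 (adjusted p 0.137), and passed when the animals of number 1 were left out (adjusted p 0.0391). The Necab1 feature passed with 0.489 (adjusted p 0.0221), a call lost without number 1 (adjusted p 0.315) or number 2 (adjusted p 0.607). With batch as a covariate, where 19.2% of features were called, PRN6.5G0059287 no longer passed (adjusted p 0.0505). Within the HXB/BXH strains alone, where 10.4% of features were called, 1 of the 10 passed, PRN6.5G0059222 with an R2 of 0.586 (adjusted p 0.00280). With batch as a covariate it did not pass (partial R2 0.371, adjusted p 0.564). Strain family and batch were mostly confounded in this table, where HXB/BXH libraries came from 7 batches and the other classic strains from 6, with only batch 10 in common. By the batch numbers of the titles they had none in common. Source and storage of the brains also went with strain family, as described further on.

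PRN6.5G0059290 split the strains into a low and a high set. In 8 strains, ACI/SegHsd, DA/OlaHsd, F344/NCrl, F344/NHsd, F344/Stm, LE/Stm, SR/JrHsd and SS/JrHsd, its mean was 6.09 to 8.02, and in the 37 others it was 10.14 to 13.01. The gap of 2.12 between them was over 3 times the next widest, 0.663. PRN6.5G0059293 had its widest gap, 1.48, below nearly the same strains, with 7 strains at 5.31 to 6.34 and the others at 7.82 to 12.54. SR/JrHsd is the strain that changed sides. It was low in PRN6.5G0059290, at 6.56, and at 12.24 in PRN6.5G0059293 it was the highest of the classic strains. The sets were read from the values and are not tested. Many of the low animals sat at a common lowest value, with 16 of 135 animals within 0.3 of the minimum for PRN6.5G0059290 and 18 for PRN6.5G0059293, which on this shrunken log scale does not say whether any read was counted.

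Single animals also changed sides within strains. PRN6.5G0059293 was 5.12, 7.13 and 11.21 in the animals of HXB18/Ipcv, and its pooled SD within strains was 1.63. PRN6.5G0059290 ran from 6.08 to 12.39 among the 3 animals of BXH6/Cub. The library labelled F344/NCrl 2, which was nearest to BXH11/Cub, had 10.80 in PRN6.5G0059290 and 8.61 in PRN6.5G0059293, while the other F344/NCrl animals, nearest to F344/NHsd, had 6.08 and 7.18 in the first and 5.24 and 5.17 in the second. Without F344/NCrl 2 and the rest of the set left out as standing apart, 7 of the 10 features passed the F-test, where 32.8% of all features were called. PRN6.5G0059286 was added (R2 0.490, limma adjusted p 0.0244).

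PRN6.5G0059222, which shares the stretch, had another order. It was lowest in LE/Stm at 6.40 and F344/Stm at 7.00 and highest in LEW/Crl at 10.14 and WKY/NCrl at 10.15. Among the recombinant strains its median was 7.82 in the 20 HXB strains (7.15 to 8.19) and 8.64 in the 10 BXH strains (7.95 to 9.32). PRN6.5G0059290 went the other way, with a median of 12.39 in HXB and 11.41 in BXH. Cross and batch were mostly confounded here. Batch 3 held 13 BXH animals and no HXB animal, and there the median of PRN6.5G0059222 was 9.29. In batch 1 its median was 7.98 in 2 BXH and 7.77 in 12 HXB animals, in batch 6 it was 7.91 in 3 and 7.78 in 17, and in batch 7 it was 8.16 in 8 and 7.77 in 2. BXH was lower in batch 2 (7.62 in 1 against 7.88 in 14) and batch 10 (8.30 in 3 against 8.61 in 2). For PRN6.5G0059290 the lowest BXH values were those of batch 7, with a median of 9.98 in 8 BXH animals against 11.10 in 2 HXB animals. BXH was also lower in batch 6 (11.20 in 3 against 12.33 in 17) and batch 2 (11.99 in 1 against 12.78 in 14), and higher in batch 1 (12.79 in 2 against 12.38 in 12) and batch 10 (11.81 in 3 against 11.47 in 2). These differences were not tested.

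**Figure D4:**
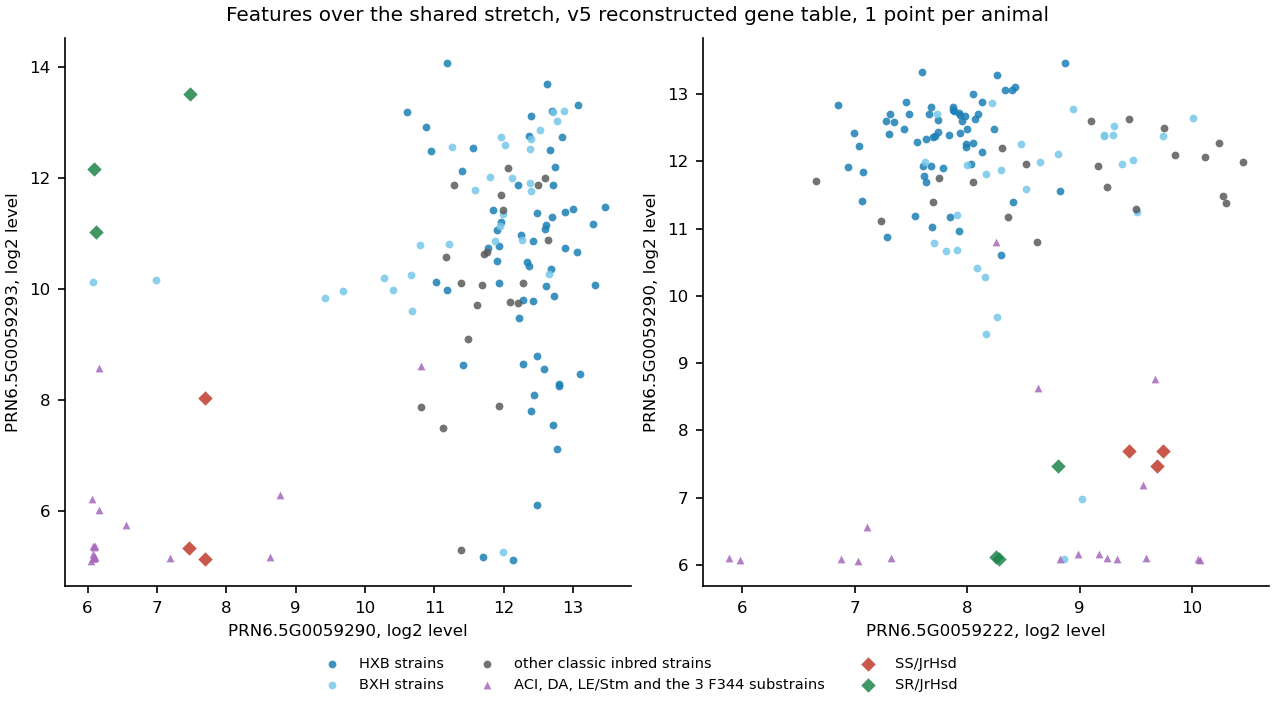
Levels (log2) of the features over the shared stretch, 1 point per animal, with PRN6.5G0059293 against PRN6.5G0059290 at the left and PRN6.5G0059290 against PRN6.5G0059222 at the right; colours give the family of the strain and, as purple triangles, the 6 strains other than SS/JrHsd and SR/JrHsd that were low in PRN6.5G0059290, marked after their values were seen. The 3 SR/JrHsd animals lie at the upper left of the left plot, at 6.09 to 7.48 in PRN6.5G0059290 and 11.03 to 13.53 in PRN6.5G0059293. Just below them lie BXH6/Cub 3 (6.08 and 10.14) and BXH9/Cub 3 (6.98 and 10.16), which are also low in the first and high in the second.

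The tables were compared to see whether a Necab name means the same RNA in each. They share most of their libraries, so that r over strains is a description of processing and not a repeat measurement. In the v6 Ensembl table r with the RefSeq gene over strain means was 0.952 for Necab2, 0.973 for Necab3 and 0.961 for the Necab1 entry ENSRNOG00000066027. A second v6 entry named Necab1, ENSRNOG00000007256, had a mean of 5.10 and r = 0.357. In the v5 Ensembl table r was 0.590 for Necab1, 0.610 for Necab2 and 0.803 for Necab3. In the v5 assembled table PRN6.5G0079638 had r = 0.768 with Necab1 and PRN6.5G0059266 had 0.646 with Necab3, but PRN6.5G0059222, PRN6.5G0059290 and PRN6.5G0059293 had 0.02, -0.04 and 0.05 with Necab3. PRN6.5G0059252 followed the neighbour Pxmp4, a peroxisomal membrane protein, with r = 0.666, and Necab3 with r = 0.177.

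Names also moved between versions. In the v7.1 assembled annotation no feature was named Necab3, and the identifier ENSRNOG00000016708, which is Necab3 in v5 and v6, was given the name E2f1. Its main feature, PRN7.71G0067947, had r = 0.814 with Necab3 of the RefSeq table and 0.295 with E2f1. For Necab1 that annotation had 5 features, of which PRN7.71G0091746 followed the RefSeq gene (r = 0.806) and the others had r of -0.15 to 0.02. Necab2 had 1 feature, with r = 0.845.

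Necab2 showed a difference between tables that touches whole families of strains. In the v5 Ensembl table the 30 HXB/BXH strains had means of 10.58 to 10.79, their progenitors 10.60 and 10.61, and the 13 other classic strains 10.80 to 11.11, with no overlap. The classic strains were on average 0.27 higher. In the RefSeq table the same strains ran from 10.37 to 10.87 and from 10.42 to 10.87, with a difference of 0.08, and in v6 it was 0.09. In batch 10, the only batch with both families, 12 classic and 5 HXB/BXH animals differed by 0.22 in v5 and the RefSeq values by 0.39, with 10 and 5 animals. This batch is that of the characteristic. By the titles, none of these classic animals shared a batch with these HXB/BXH animals. Some of the classic animals were also libraries that stood apart. R2 of Necab2 was 0.439 over the 72 strains of the RefSeq table and 0.770 over the 43 of v5 (limma adjusted p 2.43e-12), which are unlike sets. Over the HXB/BXH strains alone it was 0.354 and 0.363. Necab1 was 0.25 higher in the same classic strains in v5, but only 0.04 higher in batch 10. Source and storage of the brains divide the strains in the same way. By the methods, HXB/BXH and progenitor brains were shipped from Prague in liquid nitrogen. Rats of the 13 other classic strains came from commercial suppliers, and their brains were kept in RNAlater. The part of batch in these differences cannot be told apart from that of strain family outside batch 10, nor in any batch if the titles are followed. That of source and storage cannot be told apart from strain family in any batch.

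**Figure D5:**
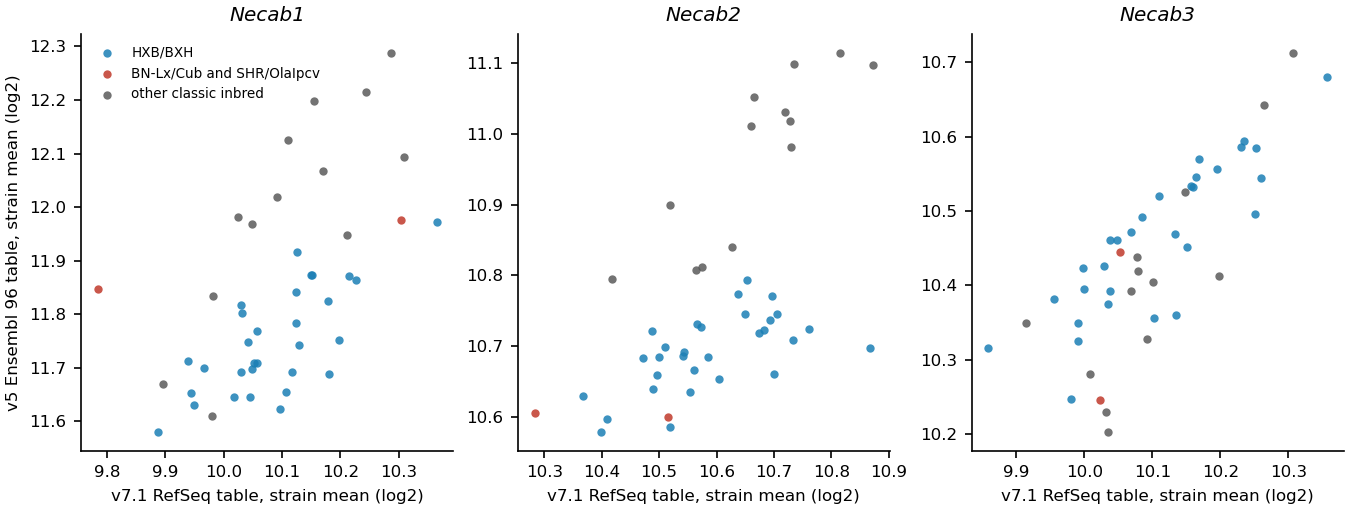
Strain means (log2) of each member in the v5 Ensembl table (y axis) against the v7.1 RefSeq table (x axis), 1 point per strain, coloured by family. For Necab2 the HXB/BXH strains lie below 10.80 and the other classic strains at or above it on the v5 axis, while both overlap on the RefSeq axis.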

How the data were processed

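RNA was measured in whole-brain samples, and group, replicate number and batch came from the labels (the batch characteristic; in 26 samples the title gives another number). For v5 the authors trimmed reads with Cutadapt 1.9.1, removed ribosomal reads with Bowtie2 2.3.4.3, aligned the rest with HISAT2 2.1.0 to strain-specific rn6 genomes, assembled with StringTie 1.3.5 guided by Ensembl and counted with RSEM (its version differs between the methods and the submitters' processing notes), then filtered, removed 1 factor of unwanted variation and applied the rlog of DESeq2. By this account the deposited values are log2 values. In the v5 assembled table single values over 30, none in a Necab feature, cannot be the log2 of a read count, so the deposited columns were recorded as a score and their other values read as log2. The submitters' processing notes also list Bowtie2 2.4.5, HISAT2 2.2.1, RSEM 1.3.3 and StringTie 2.2.1 without naming a table, and which steps and genome made v6 and v7.1 is not given in the sources used here.

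Spike-ins were left out (73 rows of the RefSeq table). Libraries of 1 strain and number were averaged to 1 animal. Strain effects and contrasts used limma 3.58.1 in R 4.3.3 on all rows of a table, with Benjamini-Hochberg adjustment over all rows. Replicate numbers were read as separate animals of a strain, and p-values measure the spread between these samples. The limma fit was tested on simulated data. Members, lists, rules and tests were chosen with earlier results of these data known, and SS/JrHsd and SR/JrHsd were left out of every test. Named genes were the members, the 5 nearest to each, the partner list, the ends of the EF-hand list and the chromosomal neighbours, with 3 Y-linked genes as a check of libraries. Deposited strain means were not used.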

Additional observations from a re-analysis of the deposited data

How the results depend on the processing

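Depth is unknown. Precision is limited by 1 to 3 animals a strain and by the spread between repeat libraries of 1 animal (SD 0.149, 0.247 and 0.142 for Necab1 to Necab3). Alternatives kept calls and directions unless given here or beside the result, and the cause of changes was not tested. Some were chosen after seeing the data: leaving out the libraries that stood apart from strain effects with HXB17/Ipcv 2, from v5 features, correlations and lists, HXB/BXH features alone, the library fit with batch for BN-Lx/Cub and SHR/OlaIpcv, and the correlations after batch or the first axis. R2 over all strains passed with batch as a covariate for Necab1 (partial R2 0.513) and Necab2 (partial R2 0.581), and in the v5 Ensembl table (0.559 and 0.770). Necab2 also passed in FXLE/LEXF in v6 (0.727) and among classic strains in v5 (0.796), and Necab3 among classic strains with batch (partial R2 0.625). Necab1 among classic strains did not pass with the title batch (partial R2 0.535), the first library of each animal (0.536), centred libraries (0.553), genes above the median level (0.584), v6 (0.428) or v5 (0.522).

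The Necab1 difference of BN-Lx/Cub and SHR/OlaIpcv did not pass with the first library (0.38), in v6 (0.29), in v5 (0.13) or in a fit of both strains alone (0.52). On animal means no fit with batch could be had for that pair. Over libraries with batch and a random block of animals Necab2 passed (-0.39), and Necab3 turned to -0.093. Necab2 in it turned to 0.13 in the v7.1 assembled table and 0.0057 in v5. Between F344/Stm and LE/Stm, Necab2 turned to -0.088 in v5, and Necab3 to 0.073 when centred and 0.026 in v5.

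Replicate numbers did not pair animals. Deviations of same-numbered animals from different strains correlated with a mean of 0.0122 over 5556 pairs, 33.0% of them over 0.1. For animals of other numbers the mean was -0.0057 over 11478 pairs, 29.3% of them over 0.1. With the replicate block Necab1 among classic strains (partial R2 0.545) and between BN-Lx/Cub and SHR/OlaIpcv (0.47) did not pass, Necab3 between F344/Stm and LE/Stm turned to 0.030, and no other call changed.

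SS minus SR moved in other features: for Necab1 -0.32 and 0.97 in v7.1 (PRN7.71G0091777 and PRN7.71G0091778), for Necab2 -0.30 in batch 8 and 0.027 in batch 11, and for Necab3 in v5 1.17, 0.48, 0.18, 1.21, 0.47, 1.06, -6.06 and 0.94 (PRN6.5G0059222, PRN6.5G0059252, PRN6.5G0059284, PRN6.5G0059286, PRN6.5G0059287, PRN6.5G0059290, PRN6.5G0059293 and PRN6.5G0059296). Of the named v5 features 1 was called in HXB/BXH alone and 0 with batch added, by limma, while 5 were called over all strains with batch. Within strains r of Necab1 and Necab2 was -0.29, -0.26 after batch and 0.48 after the first axis, that of Necab1 and Necab3 was -0.36, -0.37 and 0.0058, and that of Necab2 and Necab3 was 0.54, 0.55 and 0.0025. Without the libraries that stood apart it was 0.328 over strains, past the threshold (adjusted permutation p 0.0165 over 3 relations, against 12 before).

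Leaving out animals by number gave R2 over all strains of 0.559 to 0.670, 0.513 to 0.631 and 0.612 to 0.658 for Necab1 to Necab3. Necab1 passed in 1 of these cases (limma adjusted p 0.0462, and up to 0.548 in the others). The same leave-outs gave R2 of 0.441 to 0.537, 0.473 to 0.547 and 0.554 to 0.597 in HXB/BXH, 0.544 to 0.727, 0.597 to 0.840 and 0.511 to 0.764 in FXLE/LEXF, and 0.608 to 0.836, 0.487 to 0.611 and 0.654 to 0.674 among classic strains. With fewer animals R2 rises by construction. Leaving out animals gave 0.34 to 0.66, -0.41 to -0.02 and -0.11 to 0.11 for BN-Lx/Cub minus SHR/OlaIpcv, and 0.18 to 0.26, -0.080 to 0.17 and -0.038 to 0.050 for F344/Stm minus LE/Stm. For SS minus SR it gave -0.20 to 0.14, -0.22 to -0.05 and -0.04 to 0.14, and 5 to 6 v5 features were called.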

Other observations

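The chromosomal neighbours of the members were read from the RefSeq order on GRCr8, up to 5 named genes on each side. Near Necab1, 2 of the 4 measured neighbours before it passed the strain F-test of limma in the RefSeq table, the anion exchanger Slc26a7 and the deubiquitinase Otud6b, and 1 of 3 after it, Decr1, an enzyme of fatty acid oxidation, with an R2 of 0.657 (adjusted p 1.03e-07). Near Necab2, 1 of 5 before it passed, Mphosph6 with 0.715 (adjusted p 2.79e-11), and 1 of 4 after it, the amino acid transporter Slc38a8 with 0.734 (adjusted p 5.84e-13). Near Necab3, 0 of 2 before it and 1 of 3 after it passed, Pxmp4 with 0.652 (adjusted p 1.70e-07). The background is the 36.4% of all genes that passed. By R2 the members lay at percentiles 56.8 (Necab1), 41.9 (Necab2) and 73.1 (Necab3) of all genes. With several neighbours each, a neighbour with a larger R2 was therefore likely for any of them, and each had at least 1. Pxmp4 followed Necab3 over strain means with r = 0.594, while Slc38a8 had r = 0.189 with Necab2 and Decr1 r = 0.186 with Necab1.

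Among RefSeq transcripts, the curated Necab3 transcript NM_001098724.1 had a mean level of 10.02 (log2, not corrected for length), and the predicted transcripts XM_039105072.1 and XM_039105074.1 stood at 3.08 and 3.60.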
